A study of Mus musculus with 30 samples.

Results

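The genes described here encode the lysosomal proton pump, the cathepsins and the 2 main lysosome-associated membrane proteins, LAMP1 and LAMP2. They were taken from the deposited count table by symbol alone, as every gene whose name begins with Atp6v0 or Atp6v1, every cathepsin written as Cts plus a single letter, and Lamp1 and Lamp2, with 2 pseudogenes left out. That rule gave 40 of the 36103 genes in the table. They comprise 9 subunits of the membrane sector V0, 13 subunits of the cytosolic sector V1, 15 cathepsins, the 2 LAMPs, and Atp6v1fnb, a gene beside Atp6v1f that is not a pump subunit. The cathepsin genes Ctsj, Ctsq and Ctsr, which also match the pattern, were not analysed here.

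Lysosomes digest proteins, lipids and glycans delivered by endocytosis and autophagy, and their enzymes need an acidic lumen. The V-ATPase supplies it: the V1 sector hydrolyses ATP and turns a rotor, and the V0 sector lets protons pass through the membrane. Cathepsins are the proteases of this compartment, most of them cysteine proteases, with cathepsin D and cathepsin E as aspartic proteases and cathepsin A as a serine carboxypeptidase. LAMP1 and LAMP2 are heavily glycosylated proteins of the lysosomal membrane, and loss of LAMP2 causes an autophagic vacuolar myopathy in humans. Many of these genes carry E-boxes near their start sites, which the transcription factors TFEB, TFE3 and MITF can bind.

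The RefSeq promoter table (build GRCm38.p6), which covers 250 bases before to 50 bases after a start, had an entry for 30 of the 40 genes. The E-box CACGTG, which reads the same on both strands, stood in 9 of those 30, against 8.09% of the 27025 genes in that table. The longer form TCACGTGA, which contains the E-box, stood in 5 of the 30, against 1.12% of all. Of the 10 genes with an entry that rose in Mtm1-/y gastrocnemius by the test given further on, 5 held the E-box, namely Atp6v0d1, Atp6v0e, Atp6v1a, Ctsa and Ctsl. Of the 12 with an entry that were tested there and not called, 4 held it, namely Atp6v0b, Ctsd, Ctsf and Lamp1. The longer form stood in 4 of the 10 that rose (Atp6v0d1, Atp6v0e, Atp6v1a and Ctsa) and in 1 of the 12 not called (Ctsd). Both forms were thus found in genes that rose and in genes that did not pass the test, and a match describes the letters alone. Stretches of 4 promoters are printed to show both kinds, with each E-box in capitals. Those of Lamp1 (chr8:13159061-13159160, plus strand, 100 bases ending at the base before the start) and Atp6v0b (chr4:117887335-117887434, minus strand) belong to genes that were not called. Those of Atp6v0d1 (chr8:105566055-105566164, minus strand) and Atp6v1a (chr16:44139310-44139409, minus strand) belong to genes that rose.
Lamp1: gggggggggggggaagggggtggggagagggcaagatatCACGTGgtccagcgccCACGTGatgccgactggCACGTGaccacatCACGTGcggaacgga
Atp6v0b: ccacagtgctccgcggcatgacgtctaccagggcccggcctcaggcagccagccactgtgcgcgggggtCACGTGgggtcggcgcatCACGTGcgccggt
Atp6v0d1: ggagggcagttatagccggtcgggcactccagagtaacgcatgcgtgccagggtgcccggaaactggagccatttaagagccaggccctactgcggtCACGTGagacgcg
Atp6v1a: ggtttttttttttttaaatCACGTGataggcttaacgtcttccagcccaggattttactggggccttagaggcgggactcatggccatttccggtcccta
The Lamp1 stretch holds 4 copies of the E-box and the Atp6v0b stretch 2, while the other 2 hold 1 each. The copies of Atp6v0d1 and Atp6v1a lie within TCACGTGA, and those of Lamp1 and Atp6v0b do not.

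Poly-A RNA was sequenced from whole gastrocnemius, diaphragm, heart and liver of male Mtm1-/y mice (labelled Mtm1KO) and WT littermates on a pure 129Pas background, collected at 5 weeks. Mtm1 is X-linked and encodes myotubularin, a phosphatase of phosphoinositides on endosomes, and its constitutive loss causes a centronuclear myopathy. Of the 30 libraries, gastrocnemius and heart had 4 per genotype, diaphragm had 4 WT and 3 Mtm1-/y, and liver had 3 WT and 4 Mtm1-/y. The labels do not say which libraries came from the same mouse, and p-values measure the spread between these samples.

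Library totals ran from 24873817 to 44289343 counts. The label check was the targeted gene. Mtm1 ranged from 18.8 to 20.6 CPM (counts scaled to the size of the library) in WT gastrocnemius against 3.98 to 5.33 in Mtm1-/y, and from 12.5 to 19.0 in WT liver against 3.37 to 6.40, and the genotypes did not overlap in any tissue. The diaphragm libraries differed in liver transcripts: Alb, the albumin gene of hepatocytes, reached 17700 to 33830 CPM in WT libraries 1, 2 and 4 and Mtm1-/y library 2, against 294 in WT library 3, 565 in Mtm1-/y library 4 and 1685 in Mtm1-/y library 1. Summed markers of the labelled tissue were high in each tissue. Skeletal myofibre markers ran from 130400 to 240700 CPM in gastrocnemius and from 58910 to 93070 CPM in diaphragm. Cardiomyocyte markers ran from 65980 to 75050 CPM in heart, and hepatocyte markers from 161600 to 196400 CPM in liver. In the diaphragm, hepatocyte markers also ran from 591 to 46520 CPM in WT and from 1026 to 61170 CPM in Mtm1-/y. The marker sums there thus do not match the diaphragm label alone. In what follows a gene rose or fell where edgeR's quasi-likelihood test, run within a tissue, gave an adjusted p below 0.05, and log2 fold changes are those of Mtm1-/y over WT with their standard error (SE).

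In the gastrocnemius 7 cathepsins, 4 pump subunits and Lamp2 rose and 2 pump subunits fell in Mtm1-/y mice. Ctsd, Ctsb and Lamp1, the members with the highest counts, did not pass the test. Of the 40 genes 30 had enough counts to be tested, and 12 rose, where 14.1% of the 15456 genes tested rose. Another 2 fell, where 14.9% of all genes fell. Of the 15 cathepsins 11 were tested, and none of them fell. The median log2 fold change was 0.15 over the 30 genes and 0.02 over all genes tested. In 10 of the 30 every Mtm1-/y library lay above every WT library, as in 14.7% of all genes, and in 3 every one lay below, as in 16.0%. An unadjusted p under 0.05 was reached by 17 of the 30, against 41.6% of all genes. DESeq2 called 15, the same 14 and Atp6v0d2 (25.7% of its genes). Atp6v0d2 was not among the 30 tested genes and lay near the floor. It measured 0, 0, 0.03 and 0.0951 CPM in WT libraries and 0.288, 0.424, 0.0558 and 0.242 CPM in Mtm1-/y, so its calls here and below rest on few counts. Fitting all 30 libraries together called 11 of the 40 genes (15.8% of all genes), without Atp6v0d1, Ctsa, Ctsc, Ctsh and Lamp2 and with Atp6v0d2 and Ctse. Ctse was not among the 30 tested genes and entered that fit through other tissues. Its level was 0.503, 0.212, 9.32 and 0.189 CPM in Mtm1-/y gastrocnemius against 0.0634 to 0.360 CPM in WT, so library 3 stood far above the rest, and without it Ctse was not called. That fit of the other 29 libraries, made after seeing the data, called 7 lysosomal genes (11.7% of all genes), namely Atp6v0d2 and 6 of the 14. The genes Ctsh, Atp6v0d1, Ctsk and Ctsa, the last 4 of the 12 by p, were singled out after their values were seen. Of the 40 genes 15 overlap an annotated gene on the opposite strand, namely Atp6v0a2, Atp6v0a4, Atp6v0b, Atp6v1b2, Atp6v1c2, Atp6v1e1, Atp6v1fnb, Atp6v1g2, Atp6v1h, Ctsa, Ctsb, Ctsc, Ctsw, Ctsz and Lamp1, and whether the counting used strand is not given in the sources used here.

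**Figure D1:**
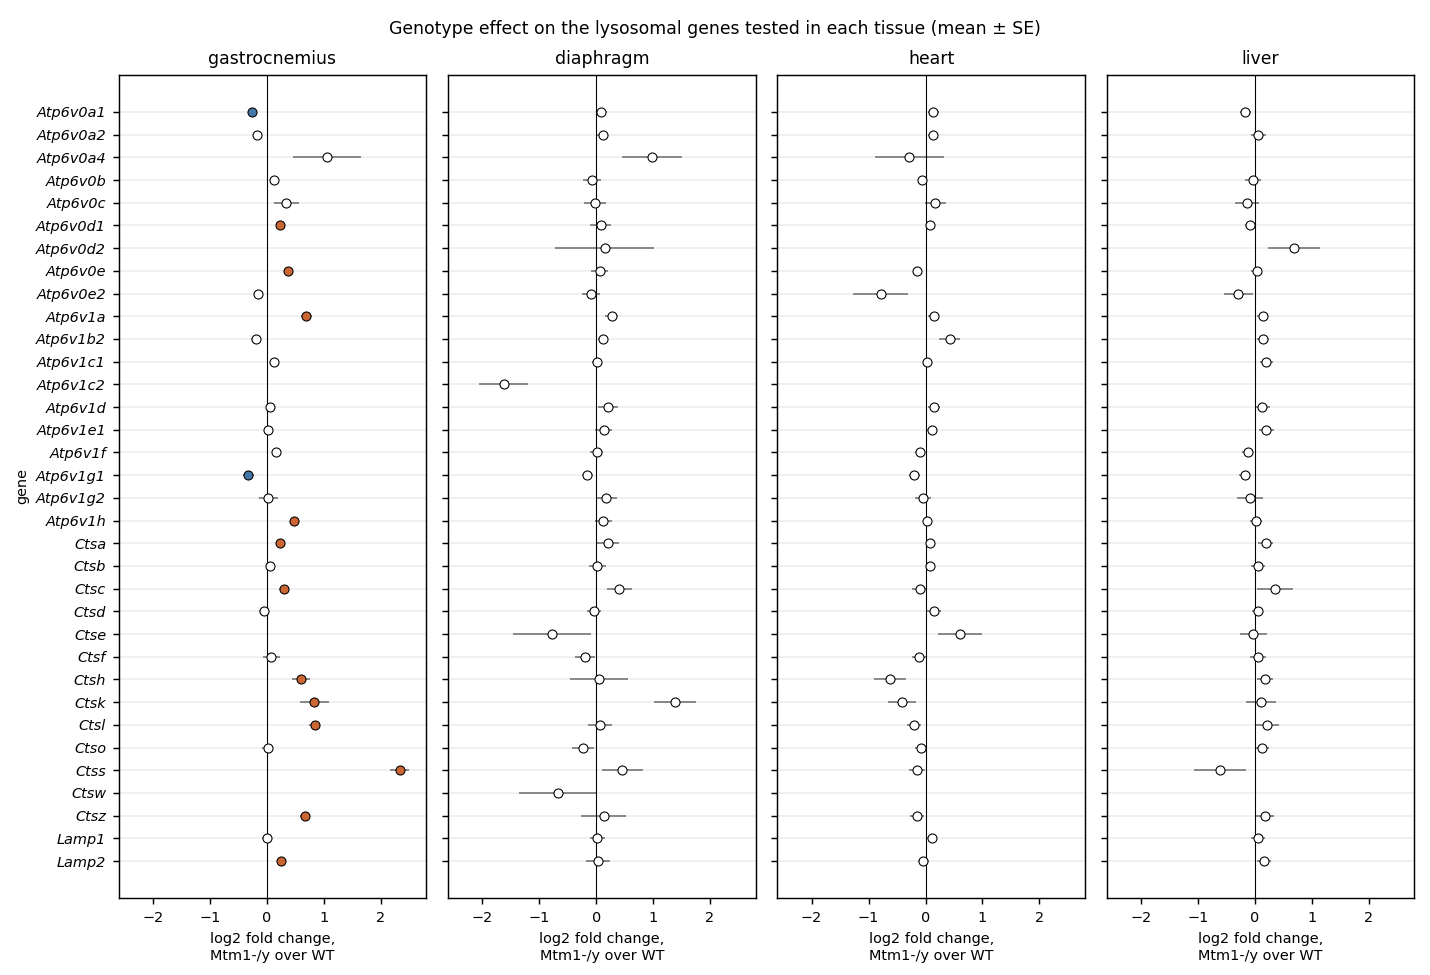
Log2 fold change of Mtm1-/y over WT (horizontal axis, point with SE) for each lysosomal gene tested in the gastrocnemius, diaphragm, heart and liver. Filled points passed an adjusted p under 0.05 (orange higher, blue lower in Mtm1-/y). All 14 filled points are in the gastrocnemius, and Ctss at 2.33 lies farthest from 0.

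Among V0 subunits of the gastrocnemius, 8 of 9 were tested, 2 rose and 1 fell. Atp6v0e, a small subunit of the membrane sector (chr17:26663231-26699647, plus strand, GENCODE M21 on mm10), measured 14.1, 15.7, 16.3 and 14.97 CPM in WT libraries and 20.6, 18.2, 20.3 and 20.03 CPM in Mtm1-/y. The groups did not overlap, and the log2 fold change was 0.37 (SE 0.07, adjusted p = 0.0049). Atp6v0d1, the ubiquitous form of the subunit that joins the rotor to the membrane ring, went from 34.2 ± 1.47 to 40.3 ± 2.05 CPM (SD, n = 4 and 4). Its log2 fold change was 0.24 (SE 0.06, adjusted p = 0.020), and the call was lost without WT library 3 or without Mtm1-/y library 1.

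The a subunit forms the proton path, and the form with the highest level within the naming rule fell. Atp6v0a1 (chr11:101009452-101063719, plus strand) measured 102, 105, 94.1 and 114 CPM in WT libraries and 90.7, 81.3, 85.3 and 90.8 CPM in Mtm1-/y, with no overlap. The log2 fold change was -0.25 (SE 0.07, adjusted p = 0.027). That call was lost without WT library 2 or 4 or Mtm1-/y library 2 or 3, when the value ran from -0.30 to -0.21. The second form, Atp6v0a2, was also below WT in every Mtm1-/y library, at 41.4 ± 3.34 against 46.6 ± 0.770 CPM, but did not pass the test (log2 -0.17, adjusted p = 0.087). Another a subunit gene, Tcirg1, lay outside the naming rule and rose, though the groups overlapped. It measured 10.63, 9.84, 8.90 and 10.69 CPM in WT libraries and 14.4, 10.62, 15.3 and 12.95 CPM in Mtm1-/y.

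Among V1 subunits of the gastrocnemius, 9 of 13 were tested, 2 rose and 1 fell. Atp6v1a, the catalytic subunit that hydrolyses ATP (chr16:44085402-44139705, minus strand), measured 29.3, 29.0, 30.1 and 26.3 CPM in WT. In Mtm1-/y it measured 53.4, 47.6, 46.9 and 38.1 CPM, all above WT, with a log2 change of 0.70 (SE 0.10, adjusted p = 0.0010). Its partner in the catalytic ring, Atp6v1b2, did not pass the test. It measured 75.7 ± 6.23 CPM in WT libraries and 66.1 ± 4.74 CPM in Mtm1-/y (log2 -0.20, adjusted p = 0.088). Atp6v1h, a regulatory subunit of V1 (chr1:5070018-5162529, plus strand), measured 17.1, 15.6, 15.5 and 16.8 CPM in WT libraries and 24.3, 21.5, 23.6 and 21.2 CPM in Mtm1-/y. It was higher in every Mtm1-/y library, at a log2 change of 0.48 (SE 0.07, adjusted p = 0.0014).

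Atp6v1g1, the ubiquitous form of a subunit in the peripheral stalk (chr4:63544772-63550750, plus strand), fell in the gastrocnemius. It measured 76.2, 83.9, 74.9 and 96.9 CPM in WT libraries and 71.1, 60.1, 70.3 and 63.8 CPM in Mtm1-/y. The lowest WT library (74.9 CPM) was above the highest Mtm1-/y library (71.1 CPM), and the log2 fold change was -0.32 (SE 0.10, adjusted p = 0.029). The call was lost without WT library 2 or 4 or Mtm1-/y library 2 or 4, with values from -0.37 to -0.24. The remaining tested V1 subunits (Atp6v1c1, Atp6v1d, Atp6v1e1, Atp6v1f and Atp6v1g2) had log2 fold changes from 0.02 to 0.16 and were not called.

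The largest change of all 30 genes in the gastrocnemius was in Ctss, which encodes cathepsin S, a cysteine protease of antigen-presenting cells that trims the invariant chain. Ctss (chr3:95526786-95556403, plus strand) measured 2.00, 1.62, 2.07 and 1.52 CPM in WT libraries and 11.4, 7.83, 8.76 and 8.51 CPM in Mtm1-/y. The lowest Mtm1-/y library was above the highest WT library, and the log2 fold change was 2.33 (SE 0.16, adjusted p = 4.2e-05). Of the 14 called genes only Ctss changed by more than 1 on the log2 scale, as did 6.63% of all genes. Of 15 macrophage markers, 14 rose in the same libraries, with a median log2 fold change of 1.502 over the list, and none was at 0. Their summed level ran from 59.0 to 104 CPM in WT libraries and from 176 to 207 CPM in Mtm1-/y, with Mpeg1, a pore-forming protein of phagocytes, at a log2 change of 2.63 (SE 0.17). The part of such cells in the Ctss result was not tested, and in bulk tissue more cells of a type and more RNA per cell cannot be told apart.

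Ctsl, encoding the cysteine protease cathepsin L (chr13:64359337-64370890, minus strand), had far more counts than Ctss. It measured 136, 127, 151 and 137 CPM in WT libraries and 280, 250, 255 and 201 CPM in Mtm1-/y. All Mtm1-/y libraries were above WT, at a log2 change of 0.84 (SE 0.10, adjusted p = 5.1e-04). Ctsz, encoding the carboxypeptidase cathepsin Z (chr2:174427493-174439039, minus strand), measured 28.1, 25.9, 24.9 and 26.0 CPM in WT libraries and 46.0, 36.6, 44.9 and 39.9 CPM in Mtm1-/y. It too was separated, with a log2 change of 0.68 (SE 0.09, adjusted p = 5.6e-04).

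Ctsc encodes dipeptidyl peptidase 1, which activates serine proteases of immune granules (chr7:88278085-88310888, plus strand). It measured 42.4, 44.3, 49.0 and 45.2 CPM in WT libraries and 53.0, 58.4, 60.2 and 50.9 CPM in Mtm1-/y, with a log2 change of 0.30 (SE 0.08, adjusted p = 0.016). The highest WT library (49.0 CPM) lay just under the lowest Mtm1-/y library (50.9 CPM). Ctsh, an aminopeptidase, rose from 8.09 ± 1.16 to 12.3 ± 2.45 CPM (log2 0.60, SE 0.16, adjusted p = 0.019), with WT library 3 and Mtm1-/y library 1 both at 9.11 CPM. That call was lost without WT library 1 or 2. Ctsa, the carboxypeptidase that also protects beta-galactosidase and neuraminidase, rose from 53.6 ± 2.58 to 62.7 ± 4.48 CPM (log2 0.23, SE 0.07, adjusted p = 0.034), and leaving out any of 5 libraries (WT 1, 2 or 3, Mtm1-/y 1 or 4) ended its call.

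Ctsk, encoding the collagen-degrading cathepsin K, measured 9.02, 10.6, 17.02 and 8.79 CPM in WT libraries and 17.4, 16.6, 17.6 and 29.7 CPM in Mtm1-/y gastrocnemius. WT library 3 lay within the Mtm1-/y range, Mtm1-/y library 4 lay far above its group, and the log2 fold change was 0.84 (SE 0.25, adjusted p = 0.031). Without Mtm1-/y library 4 the value was lower, at 0.61, and the call was lost, as it was without WT library 1, 2 or 4. Those 2 high libraries were also the highest of their group in summed fibroblast markers, at 8199 CPM in WT library 3 (the other WT libraries 3096 to 3363) and 10130 CPM in Mtm1-/y library 4 (the others 3616 to 5478). Most of both sums was Col1a1 and Col1a2, at 2713 and 3538 CPM in WT library 3 and 3452 and 4071 CPM in Mtm1-/y library 4. Dcn, Pdgfra and Fbln1 were also highest in both libraries. Lum, Dpt and Pi16 were highest in WT library 3 only, and Col3a1 and Fbln2 in neither. Of the 10 fibroblast markers 7 rose, and none was at 0. The part of fibroblasts in the Ctsk result was not tested.

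The 2 cathepsins with the highest level did not pass the test in the gastrocnemius. Ctsd, encoding the aspartic protease cathepsin D, measured 315 ± 25.2 CPM in WT libraries and 304 ± 25.4 CPM in Mtm1-/y (log2 -0.05, SE 0.08, adjusted p = 0.69). Ctsb, encoding cathepsin B, measured 350 ± 18.4 and 362 ± 20.6 CPM (log2 0.05, SE 0.07, adjusted p = 0.62). Ctso and Ctsf, the other 2 tested cathepsins, had log2 fold changes of 0.02 and 0.08.

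Of the LAMPs, Lamp2 rose in the gastrocnemius and Lamp1 did not pass the test. Lamp1 (chr8:13159161-13175338, plus strand) measured 381, 425, 398 and 445 CPM in WT libraries and 432, 410, 376 and 428 CPM in Mtm1-/y. These ranges overlapped throughout, with a log2 fold change near 0 (SE 0.08, adjusted p = 0.98). Lamp2 (chrX:38401357-38456454, minus strand) measured 124, 137, 129 and 128 CPM in WT libraries and 150, 155, 155 and 158 CPM in Mtm1-/y, with no overlap. Its log2 fold change was 0.25 (SE 0.06, adjusted p = 0.0086), and it was called whichever library was left out, but not in the fit of all 30 libraries.

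**Figure D2:**
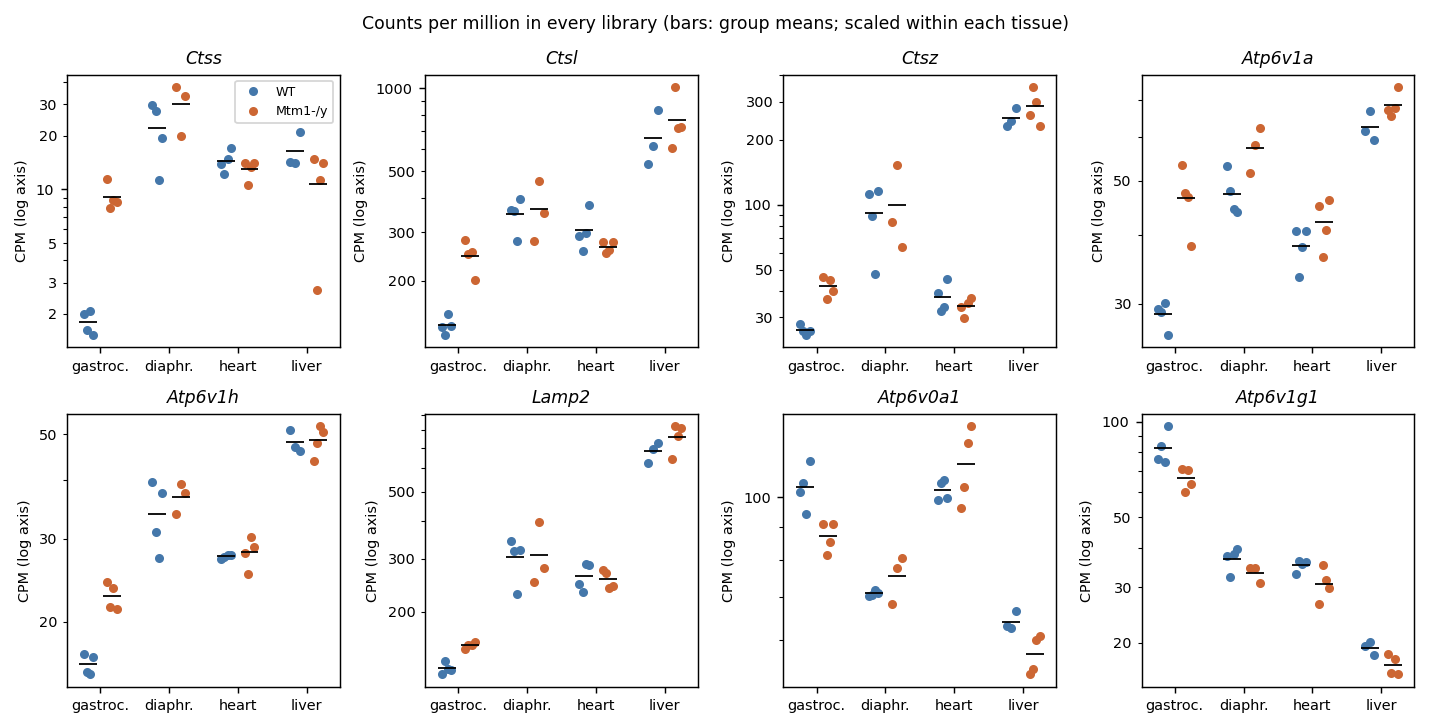
CPM on a log axis in every library (blue WT, orange Mtm1-/y; bars are group means) for 8 genes named by the rule in the gastrocnemius. CPM was scaled within each tissue, so genotypes can be compared within a tissue. The gastrocnemius groups of all 8 genes are apart, whereas the genotypes overlap in the heart for all 8.

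Other lysosomal genes were counted in written lists, to be read against the 14.1% of all genes that rose and the 14.9% that fell. Of 36 acid hydrolases, all tested in the gastrocnemius, 16 rose (44.4%) and 3 fell (8.33%), with a median log2 fold change of 0.29. Lgmn, encoding the asparaginyl endopeptidase that processes cathepsins, rose from 40.9 ± 1.72 to 82.7 ± 15.3 CPM (log2 1.02, SE 0.12), and Galns, a sulfatase, from 2.20 ± 0.483 to 6.05 ± 1.67 CPM (log2 1.46, SE 0.22). Psap, the precursor of the saposins, was singled out after its values were seen as the most abundant of the list, and it fell from 902 ± 55.9 to 685 ± 47.2 CPM (log2 -0.40, SE 0.08). The summed level of the list ran from 1634 to 1775 CPM in Mtm1-/y and from 1774 to 1917 CPM in WT. A list of 14 genes was written for assembly and accessory proteins of the V-ATPase, but it also held the a subunit gene Tcirg1. Of the 14, 4 rose (28.6%), Tcirg1 among them, and 3 fell (21.4%). The median log2 fold change was near that of all genes, at 0.025. Atp6ap2, the prorenin receptor that assists pump assembly, rose from 21.8 ± 1.63 to 36.3 ± 3.25 CPM (log2 0.73, SE 0.09), while Wdr7, part of the complex that assembles V1 on V0, fell by 0.45 (SE 0.07) on the log2 scale.

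Of 13 cathepsin inhibitors written, 6 were tested in the same muscle and 5 of these rose, with a median log2 fold change of 0.90. Cst3 was the tested inhibitor not called, and its groups overlapped, at 200 to 280 CPM in WT and 211 to 331 CPM in Mtm1-/y. Cstb, encoding the cysteine protease inhibitor cystatin B, rose from 4.90 ± 0.698 to 12.2 ± 1.61 CPM (log2 1.32, SE 0.13). Among 18 tested membrane proteins of lysosomes other than the LAMPs 5 rose (27.8%) and 2 fell (11.1%), and the tetraspanin gene Cd63 rose from 34.6 ± 0.383 to 69.5 ± 7.25 CPM (log2 1.01, SE 0.08), while Cd68 and Laptm5 of the same list are expressed mainly in leukocytes and rose by 2.33 and 1.76. Of 9 genes that sort enzymes by the mannose 6-phosphate tag or sortilin 2 rose and 1 fell (22.2% and 11.1%), with a median log2 fold change of -0.04. Igf2r, the larger mannose 6-phosphate receptor, rose by 0.29 (SE 0.07), and Gnptab, which makes the tag, fell by 0.41 (SE 0.11) on the log2 scale.

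Of 17 tested genes of the TFEB family and its regulators, 1 rose and 1 fell, and the median log2 fold change was -0.01. Tfe3 rose from 13.1 ± 1.03 to 15.8 ± 1.06 CPM (log2 0.28, SE 0.08). Rragd, a Rag GTPase of the mTORC1 pathway, fell from 437 ± 51.1 to 305 ± 12.0 CPM (log2 -0.52, SE 0.09). Myofibre markers fell, 7 of 11 with 2 higher, and their sum ran from 202200 to 240700 CPM in WT against 130400 to 143700 CPM in Mtm1-/y. White adipocyte markers counted 6 of the 10 tested higher and 1 lower, hepatocyte markers 3 of 14 lower, and cardiomyocyte markers 2 of 7 in each direction. Neutrophil and T and NK cell markers had too few counts for a test, with sums of at most 2.37 and 1.03 CPM in any library. The part of these shifts in the lysosomal values was not tested.

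In the diaphragm none of the 34 genes tested was called by edgeR, where 0.0119% of 16796 genes were called. At an unadjusted p under 0.05 there were 3 of 34, against 10.8% of all genes. DESeq2 called 2, Ctsk higher and Atp6v1c2 lower (2.37% of its genes), and edgeR on all 30 libraries called 1, Ctsk (1.48%). Ctsk measured 10.4, 6.76, 16.2 and 10.7 CPM in WT libraries 1 to 4 and 22.3, 20.1 and 43.7 CPM in Mtm1-/y libraries 1, 2 and 4. All 3 Mtm1-/y libraries were above WT, as in 5.40% of all genes, with a log2 change of 1.39 (SE 0.37, edgeR adjusted p = 0.29, DESeq2 adjusted p = 0.012). Summed fibroblast markers ran from 2447 CPM in WT library 2 to 5141 CPM in WT library 3, and from 5356 CPM in Mtm1-/y library 2 to 10450 CPM in Mtm1-/y library 4. The lowest and the highest Ctsk value of each genotype fell in those same libraries, and the part of fibroblasts in it was not tested.

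Atp6v1c2 is a form of the C subunit found mainly in kidney and lung, and its gene overlaps Pdia6 on the opposite strand. In the diaphragm it measured 0.586, 1.19, 1.96 and 1.16 CPM in WT libraries and 0.345, 0.469 and 0.379 CPM in Mtm1-/y, without overlap (4.57% of all genes lay below in this way). The log2 fold change was -1.63 (SE 0.43, edgeR adjusted p = 0.29, DESeq2 adjusted p = 0.042). Ctss in the diaphragm measured 29.7, 27.4, 11.3 and 19.6 CPM in WT libraries and 37.6, 19.9 and 33.5 CPM in Mtm1-/y. These overlapped, at a log2 change of 0.46 (SE 0.36), and summed macrophage markers overlapped too, at 419 to 932 CPM against 447 to 1040 CPM. Adding the log2 Alb level to the fit, a choice made after seeing the data, gave no called lysosomal gene (0.0893% of all genes were called). The 3 libraries with the lower Alb level held a single WT library, and a fit of these alone called no gene at all (0%), Mtm1 included, so it gives no information on the lysosomal genes.

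In the heart none of the 31 genes tested was called by edgeR, where 0.00656% of 15238 genes were called, and 1 had an unadjusted p under 0.05 (8.88% of all genes). DESeq2 and edgeR on all 30 libraries called none (0.453% and 0.0270% of their genes), and no gene of the 31 had groups that did not overlap (2.10% of all genes above and 2.16% below). The smallest p belonged to Atp6v1b2, the ubiquitous B subunit of the catalytic ring. It measured 114, 114, 100.1 and 66.8 CPM in WT libraries and 147, 102, 138 and 144 CPM in Mtm1-/y (log2 0.43, SE 0.18, adjusted p = 0.55). WT library 4 was the lowest of its group and Mtm1-/y library 2 lay within the WT range. Ctsh measured 22.6, 16.1, 20.5 and 41.1 CPM in WT libraries and 17.3, 20.02, 15.4 and 12.2 CPM in Mtm1-/y (log2 -0.63, SE 0.28, adjusted p = 0.55). The same WT library 4 was the highest, and it also had the most fibroblast marker RNA, at 5516 CPM against 2292 to 3567 CPM in the other WT hearts. This library stood apart in single cardiomyocyte genes, picked out after their values were seen. Nppa, the atrial natriuretic peptide gene, was at 19120 CPM against 662 to 2445 CPM in the other WT hearts. Myl2, a ventricular myosin light chain gene, was at 2162 CPM against 7081 to 8445 CPM, and Pln, encoding phospholamban, at 3551 CPM against 7076 to 8489 CPM. Mtm1-/y library 2, the lowest of its group in Atp6v1b2, had the most Nppa of that group, at 3097 CPM against 148 to 629 CPM. Without WT library 4 the log2 fold change was 0.28 for Atp6v1b2 and -0.28 for Ctsh, and without Mtm1-/y library 2 it was 0.535 and -0.74. In the heart the median log2 fold change was -2.343 over white adipocyte markers and 2.165 over hepatocyte markers. No marker of either list was called, and the summed levels of both overlapped between genotypes. The part of atrial tissue, fibroblasts, adipocytes or liver RNA in these heart values was not tested.

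In the liver none of the 31 genes tested was called by edgeR, as was none of all 14305 genes (0%). The targeted gene Mtm1 was thus not called either, although its genotypes did not overlap. A change of that size can therefore be missed by this test. None had an unadjusted p under 0.05, against 4.24% of all genes, and DESeq2 and edgeR on all 30 libraries called none (0.163% and 0.0757%). Atp6v0a1 measured 63.0, 62.5 and 66.6 CPM in WT libraries and 53.0, 54.1, 60.0 and 60.8 CPM in Mtm1-/y, all below WT but not past the test (log2 -0.17, SE 0.09, adjusted p = 0.97). Atp6v1f was the other gene wholly below WT, where 3.47% of all genes were, and Atp6v1c1 the one wholly above, where 2.62% were. Atp6v1g1 measured 19.5, 20.2 and 18.3 CPM against 18.5, 16.0, 17.8 and 15.9 CPM, which overlapped (log2 -0.18, SE 0.10, adjusted p = 0.97). Ctss stood at 14.3, 14.0 and 21.1 CPM in WT libraries and 14.9, 2.71, 11.3 and 14.1 CPM in Mtm1-/y. The low value of Mtm1-/y library 2 came with the lowest sum of macrophage markers, 60.7 CPM against 188 to 270 CPM in the other 6 livers, and no marker of that list was at 0.

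The tissues were then compared for the genotype effect itself, in contrasts that all share the gastrocnemius libraries. Between heart and gastrocnemius 11 of 31 genes differed, against 19.8% of all genes, with 8 lower and 3 higher in the heart. For Ctss the log2 change was -0.15 in heart against 2.33 in gastrocnemius, a difference of -2.47 (SE 0.21, adjusted p = 7.0e-06). Ctsl differed by -1.02 (SE 0.16, adjusted p = 8.6e-04), Ctsz by -0.81 (SE 0.15, adjusted p = 0.0022) and Atp6v0e by -0.50 (SE 0.10, adjusted p = 0.0031). These 4 kept their call without any one of the 16 libraries.

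In the other direction, higher in the heart, Atp6v0a1 differed by 0.41 (SE 0.13, adjusted p = 0.040), Atp6v0a2 by 0.31 (SE 0.10, adjusted p = 0.043) and Atp6v1b2 by 0.64 (SE 0.21, adjusted p = 0.044). These 3 pump subunits lost their call without any one of 10, 12 and 12 of the 16 libraries, respectively. Without WT gastrocnemius library 1, 2 or 4, or Mtm1-/y heart library 4, 6 or 7 genes were called, all of them lower in the heart. With no filter on low counts these 3 were not called, and 8 genes were.

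Between liver and gastrocnemius 3 of 32 genes differed (6.34% of all genes), all lower in the liver. Ctss differed by -2.92 (SE 0.53, adjusted p = 0.0074), Atp6v1a by -0.54 (SE 0.14, adjusted p = 0.035) and Atp6v1h by -0.43 (SE 0.12, adjusted p = 0.039). With no filter on low counts Ctss alone was called. Ctss was also the one gene called when any one of WT liver libraries 1, 2 and 3, WT gastrocnemius libraries 2, 3 and 4 or Mtm1-/y gastrocnemius library 1 was removed. Between diaphragm and gastrocnemius no gene of 34 differed by edgeR (0.280% of all genes), while 10 had an unadjusted p under 0.05 and DESeq2 called 2, Ctss and Atp6v1c2. Ctss there differed by -1.89 (SE 0.41, adjusted p = 0.089 by edgeR), and without WT diaphragm library 3 it was called.

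Levels were next compared between WT tissues in RPKM (CPM divided by the exon length in kilobases), which allows genes of different length to be set side by side. Lamp1 had the highest mean of the 40 genes in gastrocnemius (168 ± 12.8 RPKM), diaphragm (190 ± 13.9) and liver (344 ± 22.5), and Ctsd had it in heart. Ctsd was the highest protease outside the liver, at 146 ± 12.6 RPKM in gastrocnemius, 157 ± 14.7 in diaphragm and 172 ± 25.6 in heart. In the liver the order of the proteases differed, with Ctsz at 223 ± 25.9 RPKM, Ctsb at 136 ± 16.4 and Ctsl at 130 ± 31.9, while Ctsd stood at 111 ± 2.22. The ranges of Ctsb (123 to 154) and Ctsl (103 to 165) in liver overlapped, and Ctsz lay above both.

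**Figure D3:**
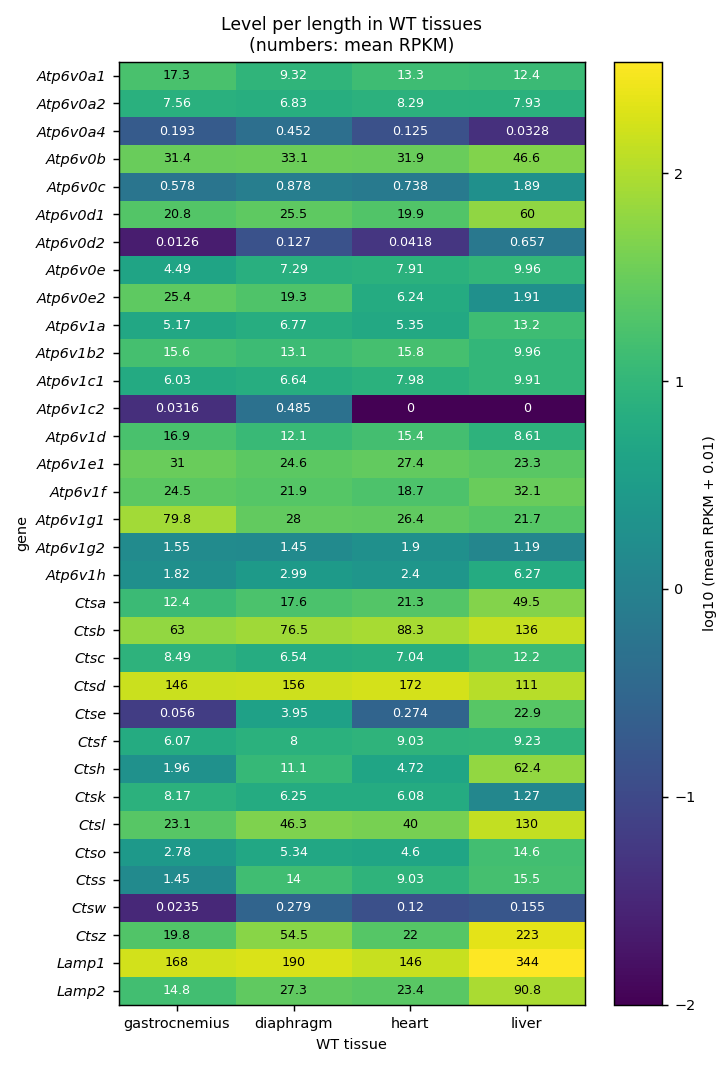
Mean RPKM of each gene in WT gastrocnemius, diaphragm, heart (n = 4 each) and liver (n = 3), with colour on a log10 scale. Genes under 0.05 RPKM in all 4 tissues are not drawn. Lamp1, Ctsd and Ctsb are high in each tissue, and Ctse and Ctsh are highest in the liver.

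Tissue differences were called where the adjusted p was below 0.05 and the log2 fold change lay beyond 1 in either direction. Against WT gastrocnemius, WT liver had 16 genes higher and 6 lower of 34 tested, where 56.7% of 17725 genes differed, 25.7% higher and 31.0% lower. The liver was higher in Ctso, a cysteine protease (log2 2.31, SE 0.13), in Ctsa (log2 1.92, SE 0.13), in Lamp2 (log2 2.54, SE 0.15) and in Atp6v1h (log2 1.71, SE 0.11). Lamp2 measured 82.3, 92.0 and 98.0 RPKM in the 3 WT livers and 14.1, 15.6, 14.6 and 14.8 RPKM in WT gastrocnemius. Every liver value lay far above the highest gastrocnemius value. The liver was lower in Atp6v1g1 (log2 -1.95, SE 0.11), Atp6v0e2 (log2 -3.82, SE 0.41), Ctsk (log2 -2.77, SE 0.38) and Atp6v1d, a rotor subunit (log2 -1.05, SE 0.12, and -0.97 and so not called without WT liver library 3). The adjusted p of these 8 genes ran from 8.5e-10 to 1.1e-05.

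WT heart had 4 genes higher and 3 lower than WT gastrocnemius (32.0% of all genes differed, 17.7% higher and 14.3% lower). Ctss led the higher ones at a log2 change of 2.60 (SE 0.28), and the 3 others (Ctsh at 1.23, Ctse at 2.21 and Ctsw at 2.27) all lost their call without WT heart library 4. Ctse also lost it without WT heart library 1 or WT gastrocnemius library 1, 2 or 4, and Ctsw without WT heart library 1 or 2 or WT gastrocnemius library 1, 2 or 3. The lower ones were Atp6v1g1 (log2 -1.63, SE 0.09), Atp6v0e2 (log2 -2.06, SE 0.33) and Atp6v1c2. Atp6v1c2 had no count in any WT heart or WT liver library and 0.0278, 0.0367, 0.0599 and 0.127 CPM in WT gastrocnemius, which is 1 to 4 counts a library. It was kept in these contrasts through its diaphragm level, and its calls as lower in heart and liver rest on those few counts, so no fold is given. Ctsw likewise had 3 to 10 counts a library in WT heart and at most 3 in WT gastrocnemius. Ctse had 19 to 42 counts a library in WT heart and 2 to 12 in WT gastrocnemius. Scaling by library totals alone moved the median log2 fold change of all genes by 0.59 toward the heart and gave 14 called genes, 11 higher and 3 lower.

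WT diaphragm had 7 genes higher and 1 lower than WT gastrocnemius (26.8% of all genes differed, 18.8% higher and 7.95% lower). Ctss (log2 3.24, SE 0.28), Ctse (log2 6.08, SE 0.70), Ctsh (log2 2.48, SE 0.35) and Ctsz (log2 1.43, SE 0.22) had the smallest p among the higher, and Atp6v1g1 was lower (log2 -1.54, SE 0.09). The rest of the higher were Atp6v1c2, Ctsw and Atp6v0d2. In WT gastrocnemius Ctse had 2 to 12 counts a library, Atp6v1c2 1 to 4 and Ctsw at most 3, and Atp6v0d2 averaged 0.035 CPM. These genes were kept through tissues where they are higher, so their calls and folds rest on few gastrocnemius counts. Scaling by library totals alone moved the median of all genes by 0.52 and gave 16, of which 15 were higher. Alb was at 17.9 to 61.0 CPM in WT gastrocnemius. With WT diaphragm library 3, whose Alb was 294 CPM, as the only diaphragm library (chosen after seeing the data, with its spread assumed to be that of the other groups), 5 genes were called (13.4% of all genes). Ctse was then at 3.78, Ctsh at 1.16 and Ctss at 2.30, and Ctsz was at 0.52 and was not called.

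Over the 7 diaphragm libraries Ctsh and Ctsz, which were highest in liver, had nearly the same order as Alb. In order of rising Alb (WT 3, Mtm1-/y 4, Mtm1-/y 1, WT 2, WT 4, WT 1, Mtm1-/y 2), Ctsh measured 22.8, 34.2, 44.2, 64.4, 69.0, 75.5 and 102 CPM. Ctsz measured 47.6, 63.9, 82.7, 88.6, 116, 112 and 154 CPM in the same order. Ctsd, which was lowest in liver, measured 416, 417, 425, 470, 434, 385 and 403 CPM and had no such order. Ctse, also highest in liver, measured 2.90, 5.38, 6.34, 21.5, 10.9, 22.6 and 13.7 CPM in that order and followed it less closely. The order was not confined to cathepsins. Lamp2 measured 228, 279, 250, 318, 321, 343 and 398 CPM, and Atp6v0d1 40.6, 49.1, 49.9, 51.7, 62.6, 57.6 and 69.1 CPM. Atp6v1h, at 27.3, 37.5, 33.9, 31.0, 37.4, 39.65 and 39.1 CPM, followed it less closely. All of these were highest in liver, and not every gene highest there is listed. The high Alb libraries were WT 1, 2 and 4 and Mtm1-/y 2, so the Alb level was not balanced between genotypes. The part of liver RNA in these values beyond the fits named above was not tested.

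**Figure D4:**
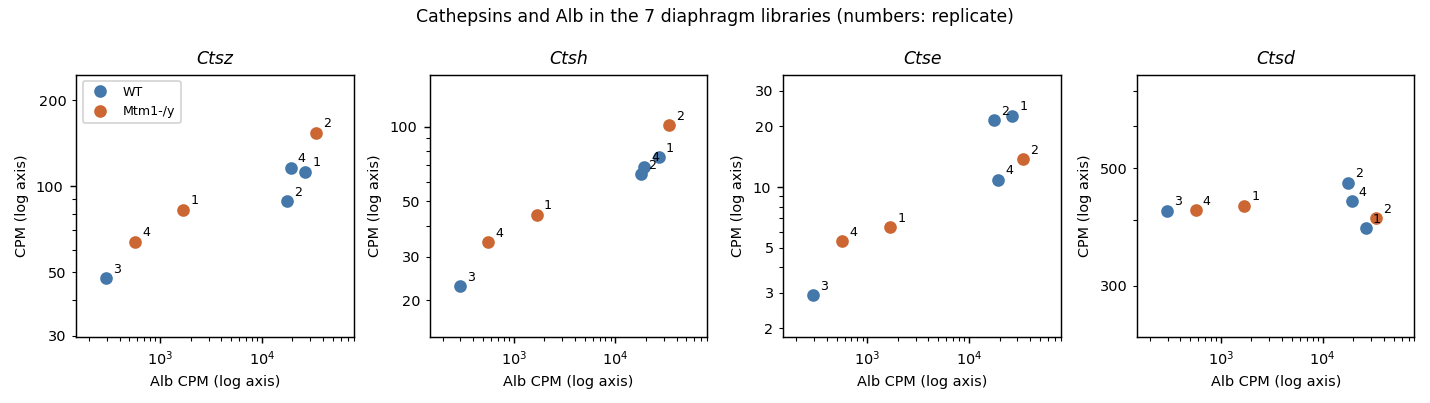
CPM of Ctsz, Ctsh, Ctse and Ctsd (vertical, log axes) against Alb CPM (horizontal, log axis) in the 7 diaphragm libraries, numbered by replicate (blue WT, orange Mtm1-/y). Ctsh rises from 22.8 to 102 CPM along the Alb axis, whereas Ctsd stays between 385 and 470 CPM.

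Atp6v1g1 of the peripheral stalk was higher in WT gastrocnemius than in any other WT tissue. Atp6v1g1 measured 72.9, 80.5, 71.4 and 94.2 RPKM in WT gastrocnemius, 28.5, 25.0, 28.7 and 29.9 in WT diaphragm, 24.6, 27.5, 26.6 and 26.9 in WT heart, and 21.8, 22.6 and 20.7 in WT liver. Diaphragm and heart overlapped, and the gastrocnemius lay above all of them. The call against each tissue held without any one library and under every scaling tried. It made up 98.1% ± 0.326 of the G subunit RPKM in WT gastrocnemius and 93.3% ± 1.08 in WT heart, with Atp6v1g2, the neuronal form, as nearly all the rest.

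The main form of the e subunit differed between tissues. Atp6v0e2 made up 85.0% ± 1.30 of the e subunit RPKM in WT gastrocnemius (n = 4), 72.3% ± 5.28 in diaphragm, 40.9% ± 14.2 in heart and 16.0% ± 1.92 in liver (n = 3). In WT diaphragm the share ran from 67.4% to 79.1%, and the highest was in library 3, the WT library with the low Alb level. The part of liver RNA in the diaphragm share was not tested. Its RPKM in WT gastrocnemius was 25.3, 24.6, 24.1 and 27.6, and in WT heart 4.78, 2.91, 4.74 and 12.5. WT heart library 4 was again the highest of its group, as it was in Nppa, and the 4 tissues did not overlap in RPKM between neighbours. In Mtm1-/y gastrocnemius the share of Atp6v0e2 was 79.7% ± 1.94, below every WT library (lowest 83.5%), and Atp6v0e rose as described while Atp6v0e2 did not pass the test (log2 -0.15, adjusted p = 0.19).

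**Figure D5:**
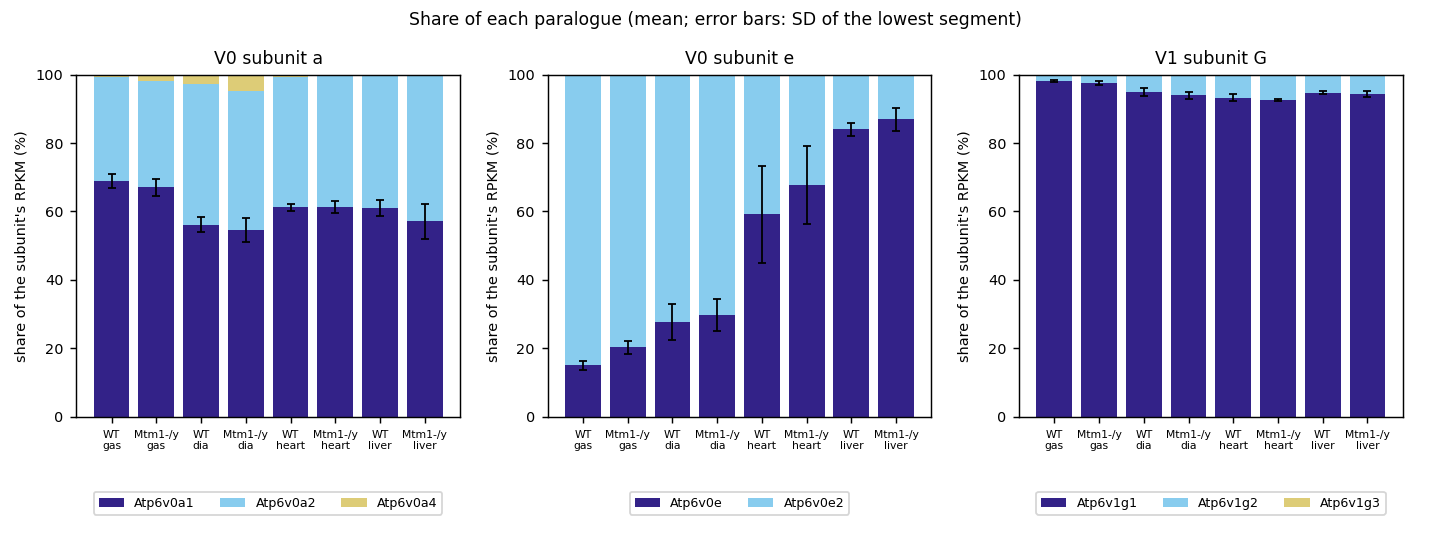
Share of each paralogue in the RPKM of the a, e and G subunits (stacked bars, percent) in WT and Mtm1-/y of gastrocnemius (gas), diaphragm (dia), heart and liver; error bars are the SD of the lowest segment. The a bars leave out Tcirg1, an a subunit gene outside the naming rule. Atp6v0e2 falls from 85.0% in WT gastrocnemius to 16.0% in WT liver, while the lowest mean share of Atp6v1g1 is 92.6%.

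For the a subunit, shares were taken over Atp6v0a1, Atp6v0a2 and Atp6v0a4 alone. Atp6v0a1 made up 69.0% ± 2.01 of these in WT gastrocnemius and 56.2% ± 2.11 in WT diaphragm, with heart and liver at 61.2% ± 0.960 and 61.0% ± 2.26. Atp6v0a2, found on endosomes and the Golgi, made up most of the remainder. Tcirg1, another a subunit gene, lay outside the naming rule and is left out of these shares. In WT liver it measured 37.3, 35.9 and 48.4 CPM, against 63.0, 62.5 and 66.6 CPM for Atp6v0a1. Atp6v0a4, the form of kidney and inner ear, had 2.68% ± 1.54 in WT diaphragm and at most 0.780% ± 0.536 in the other WT tissues. The d, B, C and E subunits each had a single main form, Atp6v0d1, Atp6v1b2, Atp6v1c1 and Atp6v1e1, with nearly all of the RPKM. The lowest of these shares in a WT tissue was that of Atp6v1c1 in diaphragm, at 93.3% ± 2.92, where Atp6v1c2 made up the rest. Lengths of the longest transcript in place of all exons, a choice made after seeing the data, gave 73.4% for Atp6v0a1 in WT gastrocnemius and kept the order of the e subunit.

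Some genes were hardly counted. Atp6v1b1 and Atp6v1g3, kidney forms, Atp6v1e2, a testis form, Ctsg of neutrophil granules, Ctsm of the placenta and Atp6v1fnb had at most 4 counts in any library and were tested in no tissue. Ctsw, a protease of cytotoxic lymphocytes, and Atp6v1c2 had enough counts for a genotype test in the diaphragm alone, with at most 51 and 60 counts in any library, and entered the WT tissue contrasts through that tissue. Atp6v0c, which encodes the proton-carrying ring, was listed at 0.578 to 1.89 RPKM in WT tissues, far below Atp6v0b of the same ring at 31.4 to 46.6. Only uniquely aligned reads were counted and near-identical pseudogene copies exist, so its level is uncertain.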

How the data were processed

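Counts per gene for 30 libraries were used as the authors deposited them. Per the study's methods and the submitters' processing notes, single-end reads from a stranded poly-A kit were demultiplexed with bcl2fastq 2.17.1.14, trimmed with cutadapt 1.10, aligned to mm10 with STAR 2.5.3a and counted as uniquely aligned reads per gene with HTSeq 0.6.1p1 on Ensembl release 96. Genes in multiple near-identical copies therefore lose reads. Totals ran from 24873817 to 44289343 counts per library.

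Groups followed the deposited labels. Genes were kept with edgeR's expression filter (minimum count 10) and scaled by TMM, and genotypes were compared within each tissue by edgeR's quasi-likelihood test (edgeR 4.0.16 in R 4.3.3) with Benjamini-Hochberg adjustment over all genes tested. The same test gave the difference in genotype effect between tissues and the WT tissue contrasts, the latter with an absolute log2 fold change over 1 as well. The edgeR genotype test within each tissue was tried on simulated counts, and the other fits and summaries were not. CPM were scaled within a tissue, and RPKM used 1 TMM scale over the 30 libraries and the union of annotated exons.

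Alternatives were DESeq2 1.42.0, limma 3.58.1 voom with sample weights, DESeq2 size factors, library totals alone, no filter, a fold threshold, a fit of all 30 libraries, a replicate block and 91 fits without 1 library each. Fits that used Alb or its low libraries, a fit of 29 libraries, and lengths of the longest transcript, were chosen after seeing the data.

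The genes and lists were chosen with earlier results of these data known. Genes were named by smallest p: in each tissue up to 8 called per direction, or the 2 with the smallest p where none was called, up to 4 per direction in other contrasts, paralogues of a subunit, the 3 highest cathepsins of a tissue, both LAMPs, and up to 3 called genes of each list.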

Additional observations from a re-analysis of the deposited data

Results flagged for a closer look

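Among 106 sets of 4 libraries checked, 1 library stood far from the other 3 in 5, and chance alone gives about 1 in 20 sets. In Mtm1-/y gastrocnemius library 3, Ctse reached 9.32 CPM and Atp6v1c2 reached 1.67 CPM, against at most 0.503 and 0.120 CPM in the other 3 libraries of the group. Library 4 of the same group was highest in Ctsk, at 29.7 CPM, and lowest in Ctsb, at 331 CPM. Mtm1-/y heart library 2 had 18.4 CPM of Atp6v0e2, against 6.57 to 7.96 CPM in the other 3. That library also had the most Nppa of its group, at 3097 CPM against 148 to 629 CPM, and WT heart library 4, with the highest Atp6v0e2 of the 8 hearts (35.3 CPM), had the most Nppa of all 8 (19120 CPM). The part of atrial tissue in these values was not tested.

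The genotype effect differed between tissues by edgeR's interaction test for 7 named genes in the heart and 3 in the liver, all against the same gastrocnemius libraries. In the heart the log2 difference was -2.47 for Ctss, -1.02 for Ctsl, -0.81 for Ctsz, -0.50 for Atp6v0e, 0.41 for Atp6v0a1, 0.31 for Atp6v0a2 and 0.64 for Atp6v1b2. In the liver it was -2.92 for Ctss, -0.54 for Atp6v1a and -0.43 for Atp6v1h.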

How the results depend on the processing

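Counts of called lysosomal genes stayed within 1.5 times the reported count in 157 checks and moved further in 24, and none of the named genes reversed its direction. In the gastrocnemius a fold threshold left 1 of 14 genes, Ctss, and leaving out 1 library gave 9 to 14. The 9 came without WT library 2, when Atp6v0a1, Atp6v1g1, Ctsa, Ctsh and Ctsk were not called. The fit of 29 libraries, without Mtm1-/y gastrocnemius library 3, gave 7, which no longer held Atp6v0a1, Atp6v0d1, Ctsa, Ctsc, Ctsh, Ctsk, Ctsz and Lamp2. In the diaphragm DESeq2 called 2 and the fit of all 30 libraries 1, and leaving out any library of the diaphragm, heart or liver kept the genotype counts at 0. The call of Mtm1 itself changed in the diaphragm without WT library 1 or 2 or Mtm1-/y library 1 or 4. In the liver Mtm1 was not called with all libraries. The diaphragm and liver counts of 0 thus come from fits that can miss the targeted gene. For the difference between heart and gastrocnemius (11 genes) leaving out 1 library gave 6 to 13. Between diaphragm and gastrocnemius DESeq2 called 2, and leaving out 1 library gave 0 to 1, the 1 being Ctss without WT diaphragm library 3. Between liver and gastrocnemius (3 genes) no filter gave 1 and leaving out 1 library gave 1 to 3. Against WT gastrocnemius, library totals alone gave 14 genes in WT heart and 16 in WT diaphragm, WT diaphragm library 3 alone gave 5, and leaving out 1 library gave 4 to 7 in heart (4 without WT heart library 4), 8 to 11 in diaphragm and 19 to 22 in liver. Smaller sets and stricter rules test fewer samples or genes by construction, and beyond that the cause was not tested.

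Replicate numbers were not used as pairs. WT and Mtm1-/y libraries of the same number correlated in their deviations from -0.038 to 0.104 in gastrocnemius and -0.637 to 0.46 in diaphragm. The values were -0.545 to 0.256 in heart and -0.048 to 0.337 in liver. These are different mice, so they cannot show whether a number marks a mouse across tissues. With WT gastrocnemius, WT libraries of the same number gave 0.032 to 0.174 in heart, -0.101 to 0.252 in diaphragm and -0.015 to 0.038 in liver. Library 1 of each matched gastrocnemius library 1 best, as heart libraries 2 and 4 did their own number, and the others did not. With a replicate block 13 genes were called in the gastrocnemius, without Atp6v1g1, and 6 between heart and gastrocnemius, all lower in the heart. Between liver and gastrocnemius the block gave 3, with Ctse in place of Atp6v1h (Ctse was at 9.32 CPM in 1 Mtm1-/y gastrocnemius library and at most 0.503 CPM in the other 7), and elsewhere the counts were as reported.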
